A study of Rattus norvegicus with 9 samples.

Results

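The nuclear-encoded subunits of the mitochondrial respiratory chain were followed across sham-operated brain, ischemic brain given vehicle, and ischemic brain given salidroside. Members were all non-control probes whose transcript accession maps to a rat gene symbol beginning Nduf, Uqcr, Cox4i, Cox5, Cox6, Cox7, Cox8 or Atp5, or equal to Sdha, Sdhb, Sdhc, Sdhd or Cyc1. The rule found 104 of 30367 probes and 82 genes, and it used no measured value. Of these genes 31 belong to complex I, 4 to complex II, 8 to complex III, 16 to complex IV and 14 to complex V. A further 8 encode related proteins that are not subunits, mostly complex I assembly factors, and 1 is a pseudogene, Cox6c-ps1. No Cyc1 probe was matched by accession, so cytochrome c1 was not analysed here.

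The samples were 9 one-colour Agilent arrays of total RNA from the brain of male Sprague Dawley rats, with 3 arrays in each group. Per the labels, both ischemic groups had middle cerebral artery occlusion (MCAO), a rodent model of focal stroke, followed by reperfusion. One of them received intraperitoneal salidroside, a glycoside of the plant Rhodiola, at 50 mg per kg once a day for 6 days, starting 1 h after reperfusion, and the other received saline on the same schedule. Ischemic brain was dissected in the ischemic groups, and the labels give neither the age of the rats nor the brain region. Levels are log2 processed signals minus the 75th percentile of each array, so a level of 0 is the signal of a probe at that percentile.

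The labels name 3 rats a group, but sham replicates 2 and 3 differed by no more than technical noise. The robust SD of their log2 difference over 9854 brighter probes was 0.088, against 0.103 expected from the spread between repeated spots of 1 probe on these arrays, and the other 35 pairs of arrays gave 0.195 to 0.558. They were therefore averaged and counted as 1 sample, which leaves 2 sham, 3 vehicle and 3 salidroside samples. Counts of members called, and the adjusted p of Cox7c, are also given with all 9 arrays as separate samples. Medians of log2 changes, interval counts and overlap counts between 2 groups are given with the averaged sham sample alone. Arrays that share a scan identifier in the file headers were taken as 1 slide, since the labels name no slides. By this reading the sham arrays lay on other slides than the ischemic arrays, so slide and ischemia cannot be told apart. Sham replicate 3 was also scanned on another day than the other arrays. Between 65.6% and 88.5% of probes were above background on each array. Of the listed markers, 13 of 14 for neurons, 8 of 8 for astrocytes and 8 of 8 for oligodendrocytes were above background and tested.

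As background, complex I oxidises NADH and complex II oxidises succinate, and both pass electrons through coenzyme Q to complex III and, by cytochrome c, to complex IV, which reduces oxygen. Complexes I, III and IV pump protons, and complex V uses that gradient to make ATP. Most subunits are encoded in the nucleus, while a small core of every complex but complex II is encoded in the mitochondrial genome and was not analysed here. Neurons depend heavily on this pathway, and loss of oxygen and glucose during ischemia stops it within the affected territory. Promoters of the nuclear genes are known for binding sites of nuclear respiratory factor 1 (NRF-1), of the ETS family factor GABP and of YY1.

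The stretches just upstream of 4 member genes are shown because Cox7c was the subunit with the lowest log2 change between ischemic and sham brain, Sdha and Cox5b hold motifs typical of the family, and Ndufaf8 was among the related genes with the lowest log2 changes. They are taken from RefSeq on assembly GRCr8, end at the base before the annotated start, and are written along the gene's strand with matches to the searched motifs in capitals. The array itself was designed on the older build rn4, so these coordinates belong to GRCr8 alone. They lie at chr2:18579171-18579270 (minus strand), chr1:30764453-30764552 (plus strand), chr9:46417737-46417836 (plus strand) and chr10:105879808-105879907 (plus strand), in the order printed.
Cox7c: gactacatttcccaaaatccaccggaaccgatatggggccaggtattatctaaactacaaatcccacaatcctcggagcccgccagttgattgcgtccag
Sdha: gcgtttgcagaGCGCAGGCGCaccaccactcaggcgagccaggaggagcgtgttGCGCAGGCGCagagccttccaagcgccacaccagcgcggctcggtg
Cox5b: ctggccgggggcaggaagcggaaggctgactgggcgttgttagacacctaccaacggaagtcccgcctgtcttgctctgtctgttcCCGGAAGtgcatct
Ndufaf8: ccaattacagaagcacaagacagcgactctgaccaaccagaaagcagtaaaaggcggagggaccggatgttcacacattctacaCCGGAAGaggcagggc

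Of the 82 genes, 72 had a promoter entry of 250 bases before to 50 bases after the start, and these were searched on both strands. The NRF-1 letters, GCGCA and GCGC with any base between them, occurred in 14 of the 72 (19.4%), against 4.71% of 27457 promoters in the table. The ETS letters CCGGAAG, which GABP recognises, occurred in 22 (30.6%), against 9.22% of all promoters. The YY1 letters AAGATGGCG, which can share their first bases with the ETS letters, occurred in 9 (12.5%), against 1.93%. Among promoters of named genes tested on the arrays, the shares were higher, at 7.89% for NRF-1, 14.4% for ETS and 2.75% for YY1. At least 1 of the motifs was present in 39 members (54.2%), against 14.3% of all promoters and 22.2% of those of named genes tested on the arrays. The median GC content of the member promoters was 56.2%, against 58.7% in the latter set. The 13 complex IV promoters held the ETS letters in 4 and neither of the other motifs, whereas 16 of the 28 complex I promoters held at least 1 motif. The Cox7c window had no match, which says only that these letters are not in it.

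The first question was whether the respiratory chain genes differed between ischemic brain given vehicle and sham brain. Of the 82 genes, 81 could be tested, and 0 of them passed the limma test at an adjusted p under 0.05, whereas 135 of 22783 features did so (0.593%). At an unadjusted p under 0.05, 1 member was higher and 5 were lower, against 13% of all features higher and 5.55% lower. With all 9 arrays taken as separate samples, 2 members were called, the complex IV subunit gene Cox7c and the pseudogene Cox6c-ps1, both lower. That fit called more features as a whole, 257 higher and 384 lower of 22783. The log2 change was under 0.5 in size for 74 of 81 genes, against 15834 of 22783 features. For 74 genes the 95% confidence interval stayed within a 2-fold difference either way, as it did for 49% of all features, and for 32 it stayed within 1.5-fold (12.3% of all features). The median standard error of a member was 0.18.

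The remaining probe, for Cox8c, a testis-type isoform of a complex IV subunit, was above background on 0 arrays and was not tested. The other member probes were above background on all 9 arrays, and none was saturated.

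The members' median log2 change, vehicle minus sham, was -0.09, and that of all features was 0.11. The log2 change was above 0 for 27 members and below 0 for 54, against 60.2% of all features above 0. By this scaling 66 of 81 members lay below the median feature, a level that 50% of all features lie below. That offset depended on normalization, since the member median minus the median of all features was -0.21 here, -0.04 after quantile normalization and 0.01 in the authors' deposited value table fitted the same way. By complex, the medians were -0.07 for complex I, -0.04 for complex II, 0.00 for complex III, -0.12 for complex IV and -0.12 for complex V. The related proteins had the lowest median, -0.28 over 8 genes. Samples of the groups did not overlap for 9 members that were higher and 19 that were lower in vehicle brain, against 23.6% of all features higher and 11% lower.

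**Figure D1:**
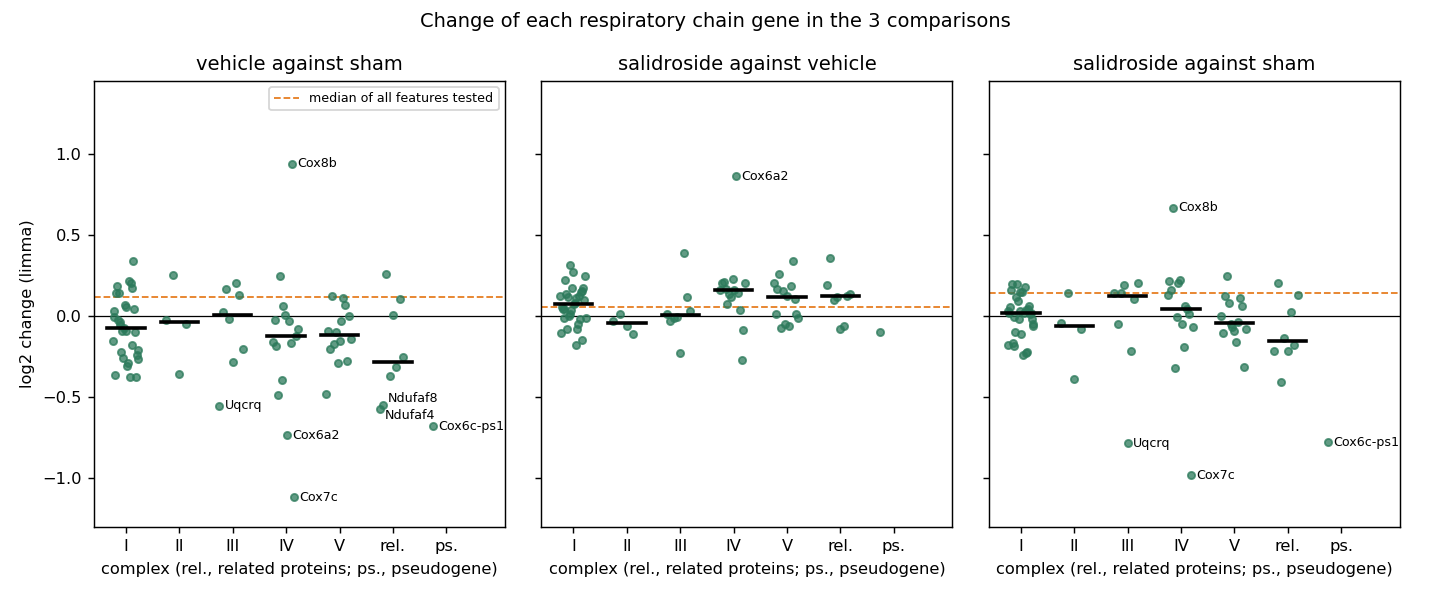
Log2 change from the limma fit of each of the 81 tested genes (points) by complex, in the 3 comparisons, with the median of each complex as a black bar and the median of all features as a dashed line. Nearly all points lie within 0.5 of 0, and the named genes are those beyond it, with Cox7c at -1.12 and -0.98 against sham.

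Cox7c, a small subunit at the periphery of complex IV, stood apart from the other members. Its level was 3.21, 3.22 and 3.34 on the sham arrays, 2.12, 2.23 and 2.02 on the vehicle arrays and 2.47, 2.27 and 2.05 on the salidroside arrays. All 6 ischemic arrays were therefore below all 3 sham arrays, and the ischemic groups overlapped each other. The log2 change was -1.12 (SE 0.18; 2.17-fold lower) for vehicle against sham, with an adjusted p of 0.054 by limma. For salidroside against sham it was -0.98 (SE 0.18; 1.97-fold lower; limma adjusted p 0.080). The threshold was passed with all 9 arrays as separate samples (limma adjusted p 0.010 and 0.021), after quantile normalization (0.039 and 0.044) and in the authors' deposited value table (0.027 and 0.032).

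The size was steadier than the call. Over the other ways of processing that apply to the comparison, the vehicle against sham value of Cox7c ranged from -1.29 to -0.99, and its limma adjusted p from 0.010 to 0.39. With slide as a random block it was -1.10 (limma adjusted p 0.11). A single probe on the array represents the gene, so no second probe was there to compare with, and RefSeq names 3 pseudogenes after Cox7c. Whether their transcripts bind this probe was not tested.

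**Figure D2:**
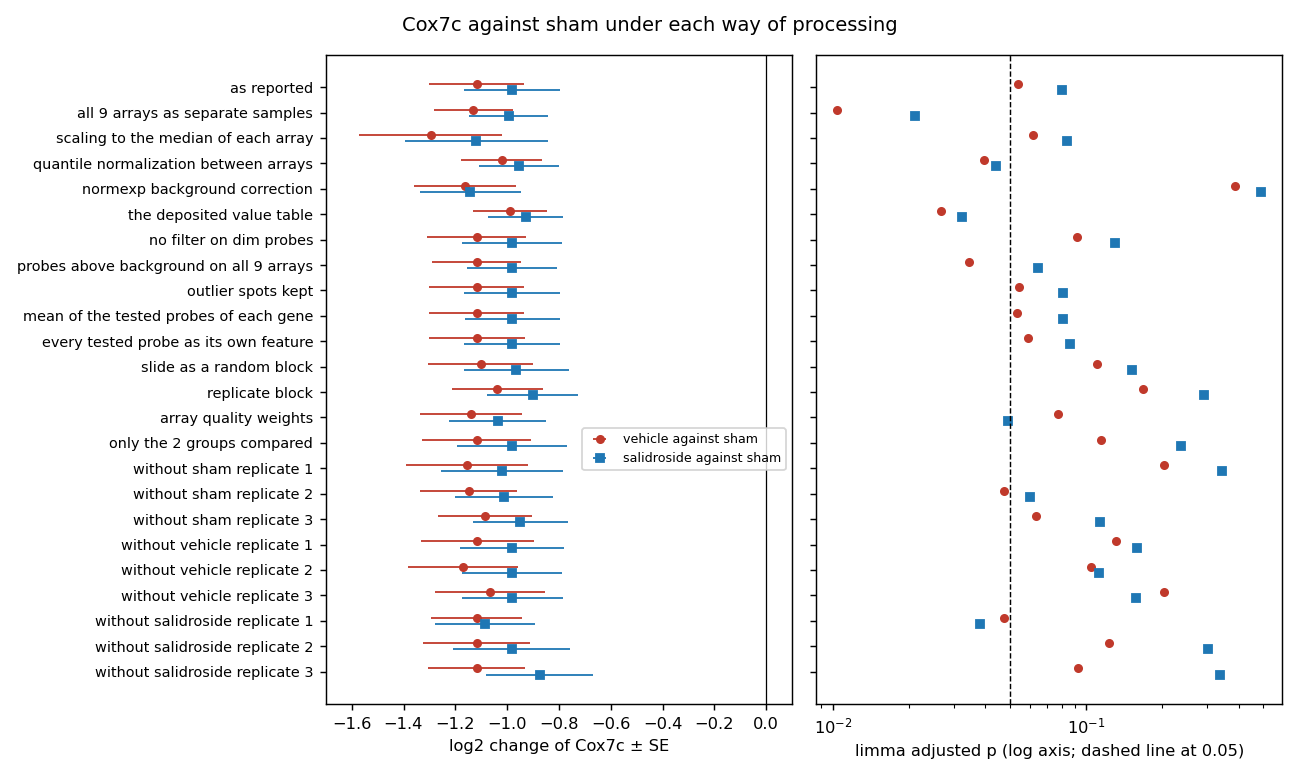
Log2 change of Cox7c against sham with its standard error (left) and its limma adjusted p on a log axis (right) under each way of processing, for vehicle (circles) and salidroside (squares). The change stays between -1.29 and -0.87 throughout, while the adjusted p lies on both sides of the dashed line at 0.05.

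Cox6c-ps1 is a transcribed pseudogene copy of Cox6c. Its brighter probe read 0.82, 0.86 and 0.88 on the sham arrays, 0.07, 0.15 and 0.26 on the vehicle arrays and 0.08, 0.09 and 0.02 on the salidroside arrays. Here too the ischemic arrays were all below the sham arrays. The log2 change was -0.68 (SE 0.15; limma adjusted p 0.11) for vehicle and -0.78 (SE 0.15; limma adjusted p 0.095) for salidroside. A second probe for it, which is dim with levels between -5.6 and -3.9, gave -1.02 and -1.14.

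The parent gene Cox6c, a small complex IV subunit, did not share that pattern. It read 4.29, 4.37 and 4.58 in sham, 4.54, 4.71 and 4.65 in vehicle and 4.62, 4.51 and 4.50 in salidroside brain. Its log2 change for vehicle against sham was 0.25 (SE 0.16; limma adjusted p 0.46).

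Among the other main isoforms of complex IV, Cox5a, a matrix-facing subunit, had the lowest log2 change. It read 5.06, 5.24 and 5.44 in sham, 4.68, 5.02 and 4.73 in vehicle and 5.15, 5.01 and 4.87 in salidroside brain. The sham and vehicle arrays did not overlap, and the log2 change was -0.39 (SE 0.19; 95% interval -0.84 to 0.05; limma adjusted p 0.33). Cox4i1, the main form of the first assembled nuclear subunit, read 5.04, 5.41 and 5.49 in sham, 5.02, 5.32 and 4.91 in vehicle and 5.34, 5.15 and 5.24 in salidroside brain. The groups overlapped, and the log2 change for vehicle against sham was -0.17 with a 95% interval from -0.64 to 0.31. The same comparison gave -0.02 for Cox6a1, -0.08 for Cox8a and 0.06 for Cox6b1, with limma adjusted p values of 0.97, 0.89 and 0.88. Over the 11 main-isoform genes, Cox7c and Cox6c included, 3 log2 changes were above 0 and 8 below, with a median of -0.08.

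**Figure D3:**
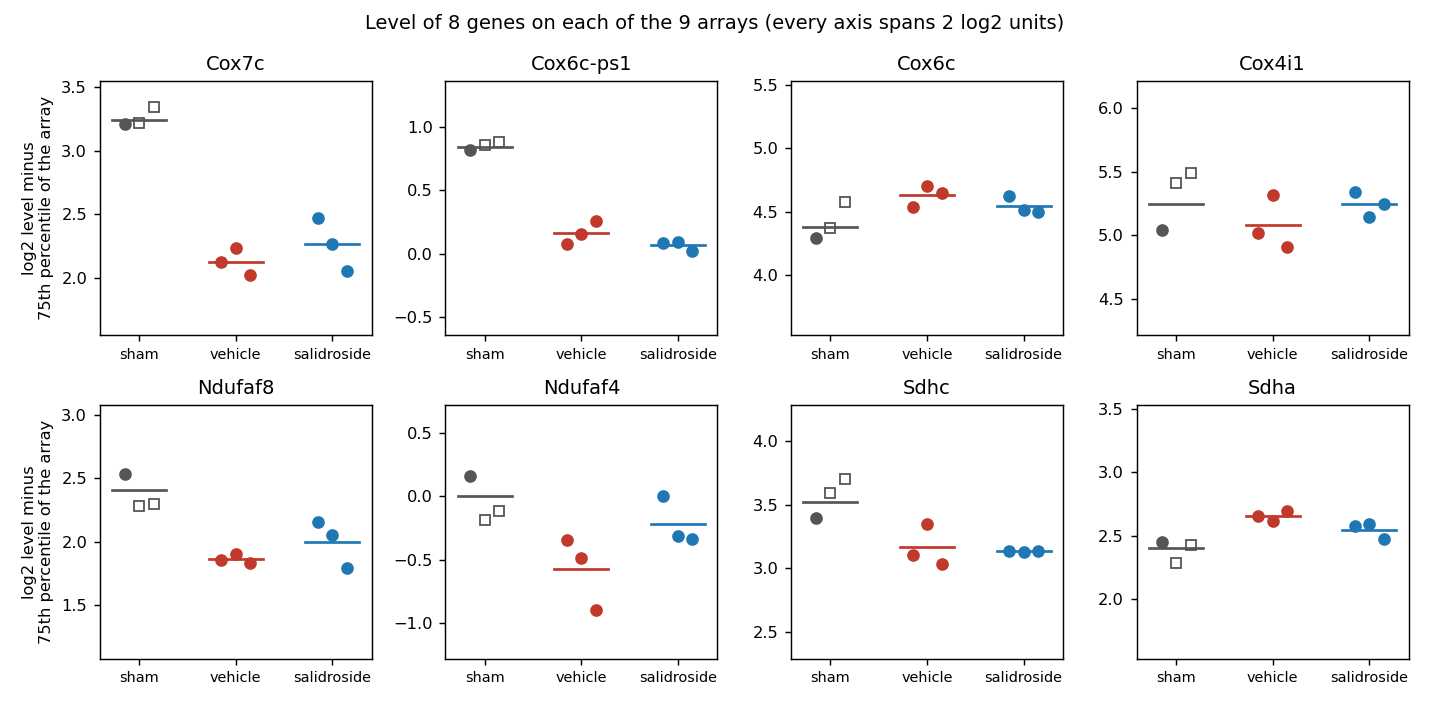
Log2 level of 8 genes on each of the 9 arrays, with group means as lines, and open squares for the sham arrays that were averaged into 1 sample. Cox7c and Cox6c-ps1 are lower on all 6 ischemic arrays than on any sham array, while Cox6c and Cox4i1 overlap between at least 2 groups.

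Of the tissue-restricted isoforms of complex IV, Cox6a2 and Cox8b were the most variable of all members. Cox6a2, the heart and skeletal muscle form of subunit VIa, read -0.81, 0.75 and 0.73 in sham, -1.43, -0.57 and -0.30 in vehicle and 0.37, 0.28 and -0.36 in salidroside brain. Sham replicate 1 lay far below the other sham arrays, and the SD over the 9 arrays was 0.74, the highest of all members. The log2 change was -0.73 (SE 0.51) for vehicle against sham and 0.86 (SE 0.46) for salidroside against vehicle, with limma adjusted p values of 0.49 and 0.99.

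Cox8b, the muscle form of subunit VIII, is dim here. It read -4.39, -4.34 and -5.07 in sham, -4.32, -3.41 and -3.09 in vehicle and -4.31, -3.64 and -3.69 in salidroside brain. All ischemic arrays were above the sham arrays, by 0.94 (SE 0.38; limma adjusted p 0.25) in vehicle brain. Cox4i2, the oxygen-regulated lung-type form of subunit IV, differed by -0.16, and Cox6b2, the testis-type form of subunit VIb, by -0.49 (limma adjusted p 0.76 and 0.34). Of the 16 muscle markers listed, 12 were tested; their summed signal, relative to the 75th percentile, was 2.88 to 4.67 in sham, 2.50 to 3.47 in vehicle and 3.31 to 4.52 in salidroside brain. Their part in the readings of Cox6a2 and Cox8b was not tested.

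Complex I, which carries the NADH-binding and iron-sulfur subunits in its matrix arm and proton pumping in its membrane arm, had no member beyond a log2 change of 0.5. For vehicle against sham its 31 genes ranged from -0.38 to 0.34, and all 31 intervals stayed within 2-fold. The 7 core matrix-arm genes had a median of -0.01, the 7 accessory matrix-arm genes 0.03 and the 16 accessory membrane-arm genes -0.10. Ndufv2, a core iron-sulfur subunit, was among the steadiest members, with 3.07, 3.03 and 2.99 in sham, 3.17, 3.16 and 3.24 in vehicle and 3.05, 3.04 and 3.03 in salidroside brain. Its vehicle arrays lay just above both other groups, by 0.14 over sham (limma adjusted p 0.66). Ndufa9, a matrix-arm subunit that binds a nucleotide cofactor, had an SD of 0.074 over the 9 arrays.

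A few complex I accessory genes had groups that did not overlap without passing the test. Ndufb7, of the membrane arm, was 0.34 higher in vehicle than in sham brain (limma adjusted p 0.32). Ndufa2, of the matrix arm, was 0.21 higher in vehicle and 0.20 higher in salidroside brain, with all 6 ischemic arrays above the sham arrays. All 6 ischemic arrays were above all 3 sham arrays for 5 members (Cox8b, Ndufa2, Ndufaf5, Ndufs3 and Sdha), against 9.34% of all features. They were below for 6 members (Atp5mg, Cox6c-ps1, Cox7c, Ndufaf3, Ndufaf8 and Sdhc), against 4.56%.

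Different probes of a gene disagreed for 3 members, by more than 0.5 with opposite signs. For Ndufab1, the acyl carrier protein of complex I, the bright probe gave -0.22 and the dim probe 0.65 for vehicle against sham. For Ndufv3, an accessory subunit of the NADH-oxidising module, the 3 probes ranged from -0.09 to 0.92. For Cox6b1, the subunit that bridges complex IV dimers, they ranged from -0.58 to 0.06. In each of them the brightest probe gave a small change and a probe with a level below 0 gave the largest, so the direction for these genes is not settled.

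Complex II consists of 2 catalytic and 2 membrane anchor subunits, and their readings differed in sign without passing the test. Sdha, the flavoprotein, read 2.45, 2.29 and 2.43 in sham, 2.66, 2.62 and 2.70 in vehicle and 2.58, 2.59 and 2.47 in salidroside brain. That is 0.25 (SE 0.15) above sham in vehicle brain, with a limma adjusted p of 0.42. Sdhc, a membrane anchor, read 3.40, 3.59 and 3.70 in sham, 3.11, 3.35 and 3.04 in vehicle and 3.13, 3.13 and 3.14 in salidroside brain. Its log2 changes against sham were -0.36 and -0.39 (SE 0.18 each; limma adjusted p 0.32 and 0.42). For Sdhb, the iron-sulfur subunit, and Sdhd, the other anchor, the changes in vehicle brain were -0.05 and -0.02.

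Complex III was the least displaced by its median, 0.00 in vehicle against sham. Uqcrfs1, the Rieske iron-sulfur protein, had the lowest spread of all members, with an SD of 0.057 over the 9 arrays and levels between 2.08 and 2.25. Uqcrh, the hinge protein, was 0.17 above sham in vehicle and 0.20 above it in salidroside brain (limma adjusted p 0.63 and 0.68). Uqcrq, an accessory subunit, is dim and variable. Its readings were -1.98, -1.31 and -1.10 in sham, -2.65, -2.28 and -1.52 in vehicle and -2.63, -2.19 and -2.32 in salidroside brain. The log2 changes against sham were -0.55 and -0.78 (SE 0.37 each; limma adjusted p 0.47 and 0.44).

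For complex V, the ATP synthase, 4 of 14 log2 changes for vehicle against sham were above 0 and 10 below. The lowest was that of Atp5mg, a membrane subunit, which read 5.31, 5.34 and 5.55 in sham, 4.75, 5.14 and 4.79 in vehicle and 5.14, 5.05 and 4.99 in salidroside brain. The vehicle value was -0.48 (SE 0.18; limma adjusted p 0.23), while its dimmer probe gave -0.12, and RefSeq names 8 pseudogenes after it. The genes of the proton-carrying c ring that were measured, Atp5mc1 and Atp5mc2, gave -0.14 and 0.07. Across the 82 members, 39 have at least 1 pseudogene named after them, and cross-binding of such copies was not tested.

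Among the related proteins, 4 of the 6 complex I assembly factors had a log2 change below 0 for vehicle against sham and 2 above, with none called. Ndufaf8 read 2.53, 2.28 and 2.30 in sham, 1.85, 1.91 and 1.83 in vehicle and 2.15, 2.05 and 1.79 in salidroside brain. All ischemic arrays were below the sham arrays, with a log2 change of -0.55 (SE 0.18; limma adjusted p 0.18) in vehicle and -0.41 (limma adjusted p 0.40) in salidroside brain. Ndufaf4 differed by -0.58 (SE 0.23; limma adjusted p 0.24) in vehicle brain, and its 4 probes ranged from -0.59 to -0.26. Ndufaf7, a methyltransferase that acts on a complex I core subunit, gave -0.37, Ndufaf3 -0.25, Ndufaf1 0.00 and Ndufaf5 0.26. Atp5if1, the inhibitor protein of ATP synthase, gave -0.31 (limma adjusted p 0.39), and Cox7a2l, which helps join complexes III and IV, gave 0.11.

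Markers of brain and other cell types differed in the same comparison by the values given here. Over all features, 60.2% of log2 changes were above 0 and limma called 0.593%. At an unadjusted limma p under 0.05, 13% of all features were higher and 5.55% lower. Of 13 neuronal marker genes 3 log2 changes were above 0 and 10 below for vehicle against sham, with a median of -0.30, and 0 were called by limma, with 1 lower at an unadjusted p under 0.05. Their summed signal was 91.8, 82.5 and 86.4 in sham, 71.7, 89.8 and 66.6 in vehicle and 87.1, 83.2 and 77.2 in salidroside brain. On the same arrays the members' median deviation was -0.08, 0.12 and 0.16 in sham and -0.12, 0.06 and -0.11 in vehicle brain. In salidroside brain it was 0.10, 0.01 and -0.04. Of 10 microglial markers 9 log2 changes were above 0 (median 0.74), with 0 called and 4 higher and 1 lower at an unadjusted p under 0.05. Of 8 choroid plexus markers 7 were above 0 (median 0.86), with 0 called and 1 higher at that p, and their summed signal was 1.87 to 1.97 in sham, 2.27 to 94.0 in vehicle and 1.42 to 88.0 in salidroside brain. Of 5 ependymal markers 4 were above 0 (median 2.05), with 1 called higher and 4 higher at that p. All 8 astrocyte markers were above 0 (median 0.35), with 0 called and 1 higher at that p. All 4 erythrocyte markers were below 0 (median -1.04), with 0 called and 3 lower at that p. Of 8 oligodendrocyte markers 6 were above 0 (median 0.14), and of 6 endothelial markers 4 were (median 0.02). Neither list had a gene called or past that p. In bulk tissue, fewer cells of a type and less RNA per cell cannot be told apart. The part of cell makeup in the readings of the respiratory chain genes was not tested.

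The second question was whether salidroside altered these genes in ischemic brain. Limma called 0 of 81 members, and 0 of 22783 features (0%), between salidroside and vehicle. At an unadjusted p under 0.05 the count was 0 members in either direction, against 1142 features (5.01%; 2.71% higher and 2.3% lower). For 78 members the 95% interval lay within 2-fold (70.1% of all features), and for 58 within 1.5-fold (25.2%). The members' median log2 change was 0.10, and that of all features was 0.06. It was above 0 for 56 members and below 0 for 25, against 58.6% of all features above 0. By complex the medians were 0.07, -0.04, 0.00, 0.16 and 0.12 for complexes I to V, and 0.12 for the related proteins.

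Besides Cox6a2, the members with the smallest p values in this comparison differed by less than 0.5 on the log2 scale. Uqcr11, a complex III accessory subunit, read 4.82, 4.77 and 4.37 in vehicle and 5.17, 4.83 and 5.14 in salidroside brain, a log2 change of 0.39 (95% interval -0.11 to 0.89), and all 3 of its probes gave a positive value. Atp5f1d, a subunit of the central stalk attached to the F1 head, gave 0.34, Ndufb2, of the complex I membrane arm, 0.32, and Ndufaf4 0.36. In the other direction, Ndufv2 gave -0.15, Ndufb7 -0.18 and Sdha -0.11. The limma adjusted p of each of these was 0.99. Samples of the groups did not overlap for 5 members that were higher and 2 that were lower, against 5.72% of all features higher and 6.23% lower (11.9% together).

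Vehicle and salidroside arrays shared slides, so the same difference can be read within a slide. On slide 1, with vehicle 1 and 3 and salidroside 2 and 3, the per-gene difference, salidroside minus vehicle, had a median of 0.09 over the members. On slide 2, which holds 1 array of each group, vehicle 2 and salidroside 1, that median was 0.02. For all features tested, the medians were 0.09 on slide 1 and -0.03 on slide 2. Over the complex IV genes these medians were 0.23 and -0.02, beside 0.16 for the pooled comparison. Cox6a2 gave 0.83 and 0.94, Uqcr11 0.38 and 0.41, and Cox7c 0.09 and 0.24. With slide as a fixed term, limma again called 0 members, and 0 of 22783 features. In this comparison the 4 erythrocyte markers had a median of 1.21 (3 higher at an unadjusted p under 0.05), the 10 microglial markers -0.76 (1 higher and 4 lower), the 5 ependymal markers -0.90 (2 lower), the 8 choroid plexus markers -0.61 (0 either way) and the 13 neuronal markers 0.16 (0 either way). The 8 astrocyte, 8 oligodendrocyte and 6 endothelial markers had medians of -0.13, 0.12 and 0.21 (0 either way). Of all features, 2.71% were higher and 2.3% lower at that p. Limma called 0 genes of each of these lists, and their part in the members' readings was not tested.

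Salidroside-treated ischemic brain was also set against sham. The vehicle and salidroside comparisons share the sham samples, so their values are given side by side and are not independent. Limma called 0 members, against 117 features (0.514%), and at an unadjusted p under 0.05 it found 0 members higher (10.1% of all features) and 2 lower, Cox7c and Cox6c-ps1 (2.82% of all features). Samples did not overlap for 9 members that were higher and 12 that were lower, against 19.8% and 7.7% of all features. The median log2 change was 0.01, against 0.14 for all features, with 41 members above 0 and 40 below (66.2% of all features above 0). By complex it was 0.02, -0.06, 0.13, 0.05 and -0.04 for complexes I to V, beside -0.07, -0.04, 0.00, -0.12 and -0.12 for vehicle. The interval stayed within 2-fold for 76 members (52.9% of all features).

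The arrays of a group differed from each other as much as the groups did. Deviations were taken from each gene's mean over the 8 samples, with sham replicates 2 and 3 averaged. The median deviation of the 81 members was -0.08, 0.12 and 0.16 on the sham arrays and -0.12, 0.06 and -0.11 on the vehicle arrays. On the salidroside arrays it was 0.10, 0.01 and -0.04. Sham replicate 1 thus lay with vehicle replicates 1 and 3, below the other sham arrays. Such a gap was not particular to the members. The sham arrays gave -0.20, 0.04 and -0.06 over all features and -0.28, 0.04 and 0.09 over the cytosolic ribosomal protein genes. In the related proteins sham replicate 1 lay above the others, with 0.19, 0.11 and 0.10. Among complexes I to V the gap was widest in complex IV, with -0.21, 0.23 and 0.31 in sham, and narrowest in complex II, with 0.03, 0.01 and 0.07. Without sham replicate 1, which leaves a single sham sample, the vehicle against sham median was -0.22 for the members and -0.37 for complex IV. The median of all features was then 0.03. With that array these medians were -0.09, -0.12 and 0.11.

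**Figure D4:**
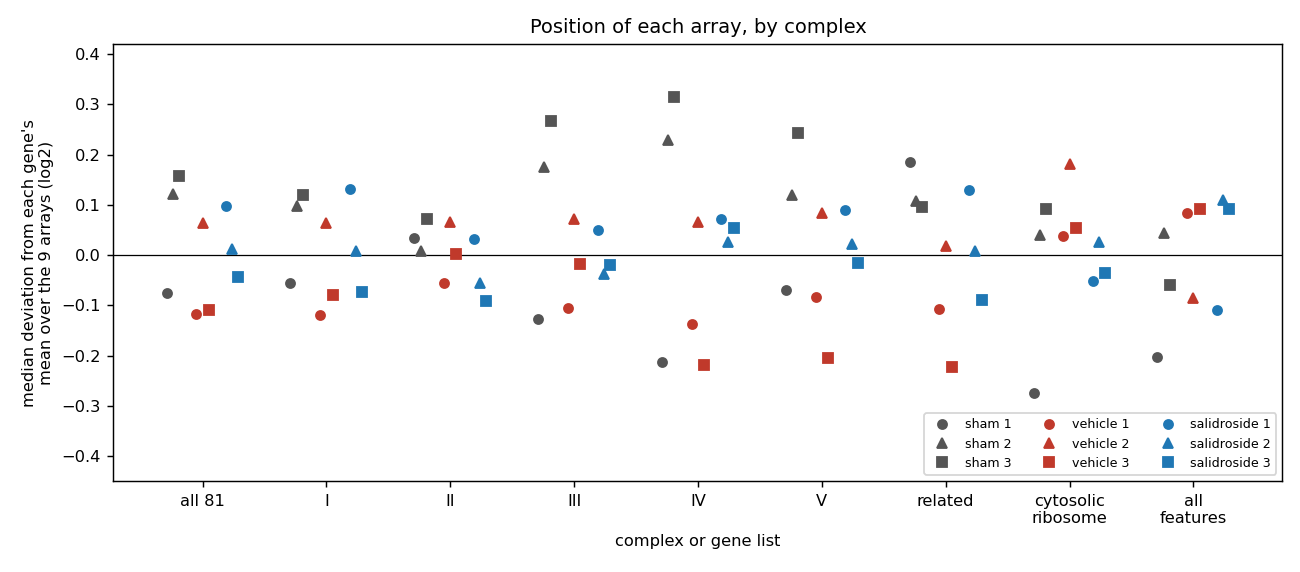
Median deviation of the genes of each complex from their own means, 1 point per array, with the 76 cytosolic ribosomal protein genes and all features at the right. The means are over the 8 samples, with sham replicates 2 and 3 averaged, although the axis label names 9 arrays. Sham replicate 1 lies below sham replicates 2 and 3 in complexes I, III, IV and V, by the most in complex IV (-0.21 against 0.23 and 0.31). It also lies below them in the ribosomal genes (-0.28 against 0.04 and 0.09) and over all features (-0.20 against 0.04 and -0.06).

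Members varied less between arrays than other features. The median SD over the 9 arrays was 0.17 for the members, 0.36 for all features and 0.21 for the 1531 features within 1 log2 unit of the members' median signal. This is a description, with no test.

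Other genes of mitochondrial energy metabolism gave medians close to 0, which lay below the median of all features (0.11), as that of the members did. For vehicle against sham, limma called 0 genes in each of 6 lists: 28 other assembly factors (median log2 change 0.02), 16 genes of the tricarboxylic acid cycle and pyruvate dehydrogenase (-0.02), 16 of electron carriers and coenzyme Q synthesis (0.00), 15 biogenesis regulators (-0.04), 13 carriers and porins (-0.02) and 66 mitochondrial ribosomal proteins (-0.02). At an unadjusted p under 0.05 these lists held 0, 0, 0, 2, 0 and 1 higher and 1, 1, 1, 0, 0 and 3 lower genes, in that order. Of all features, 13% were higher and 5.55% lower at that p. In the same order, 22, 12, 10, 12, 9 and 46 genes lay below the median feature, a level that 50% of all features lie below. The 76 cytosolic ribosomal protein genes, another set of bright probes, had a median of 0.21 with 61 log2 changes above 0 and 15 below, 0 called by limma and 11 higher at an unadjusted p under 0.05, against 60.2% of all features above 0 and 13% higher at that p. For salidroside against vehicle the same ribosomal genes had a median of -0.10, with 17 above 0 and 59 below, and again 0 were called, with 6 lower at an unadjusted p under 0.05 (2.3% of all features).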

How the data were processed

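Per the file headers, the authors extracted each scan in Agilent's Feature Extraction software, version 11.0.1.1, which gives a background-subtracted fluorescence intensity per spot on a linear scale. The authors also deposited a table of processed log2 values for 19477 probes, whose columns share 1 maximum (17.9) and nearly the same median (8.69 to 8.71). Its direction and array match were checked against the scanner values, and its exact normalization is not given in the sources used here. Depth has no counterpart on arrays, where the number of arrays limits the precision.

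The processed signal of each non-control spot was put on the log2 scale, averaged per probe without outlier spots and scaled to each array's 75th percentile. Testing covered the 25576 probes that the software marked as well above background throughout at least 1 group. Of 30367 probes 18005 were named through RefSeq transcript accessions (GRCr8 table) and 12362 were not. The brightest probe stood for a gene, giving 22783 features. limma 3.58.1 in R 4.3.3 fitted all 3 groups together, with Benjamini-Hochberg adjustment over all features and a threshold of 0.05; the fit was tested on simulated data. The design had all 9 arrays as samples; averaging sham replicates 2 and 3 was chosen after the data were seen, and the fit with 9 separate arrays is given as an alternative. The normexp alternative used the median spot and background signals. Samples were not paired by replicate number in the main fit. Deviations of same-numbered arrays correlated from -0.19 to 0.26, and those of differently numbered arrays from -0.427 to 0.465. With 3 arrays a group, such correlations cannot exclude a pairing.

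The members and gene lists were chosen with earlier results of these data known. Genes named with values were those with the 5 smallest p values in each direction of each comparison, the 3 highest and 3 lowest spreads, isoforms of complex IV, c ring and complex II genes, related proteins, and genes with disagreeing or undetected probes; single genes that a count singles out were added after their values were seen. Where nothing says otherwise, p values measure the spread between these samples.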

Additional observations from a re-analysis of the deposited data

How the results depend on the processing

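The number of members called was 0 in each comparison and depended on the processing only through Cox7c and Cox6c-ps1. For vehicle against sham it was 2 with all 9 arrays as separate samples, and 1 after quantile normalization, in the deposited value table and with probes above background on all 9 arrays. Over all features these settings called 257 higher and 384 lower, 58 and 145, 32 and 177, and 19 and 155, in that order. They tested 22783, 22783, 17570 and 17811 features. For salidroside against sham the number of members called was 2 with 9 separate arrays and in the deposited table, and 1 after quantile normalization and with array quality weights. All features gave 64 higher and 220 lower, 21 and 169, 71 and 147, and 170 and 135 there. Leaving out single replicates gave 0 to 1 in both comparisons with sham (Cox7c, called for vehicle without sham replicate 2 or salidroside replicate 1, and for salidroside without salidroside replicate 1), and 0 to 0 for salidroside against vehicle. For vehicle against sham, limma called 66 features higher and 114 lower without sham replicate 2, and 123 and 115 without salidroside replicate 1. For salidroside against sham it called 749 higher and 146 lower without salidroside replicate 1. A group left with 1 sample is assumed to vary like the others. Among 2657 values of 38 named genes under 24 alternatives, 14 passed the threshold (all Cox7c or Cox6c-ps1), none was called with the opposite sign, and 127 changed sign without a call.

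Scaling to the median moved the median of all features from 0.11 to -0.06 for vehicle against sham. The members' median was then -0.27, and that of complexes I, II, III and V -0.25, -0.21, -0.17 and -0.30. For salidroside against sham it was -0.13, and -0.12, -0.20 and -0.18 for complexes I, II and V. Complex II gave 0.0598 after quantile normalization and 0.06 in the deposited table for vehicle against sham, and -0.13, -0.15 and -0.13 with quantile, normexp and deposited values for salidroside against vehicle, where complex V gave -0.027 with normexp. For salidroside against sham normexp gave -0.114, -0.135 and -0.053 for complexes I, II and III, and under normexp the median of all features itself was 0.54. The cause was not tested.

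With single replicates left out, the members' median ranged from -0.216 to -0.0635 for vehicle against sham and from -0.109 to 0.016 for salidroside against sham. For vehicle against sham the ranges were -0.182 to -0.043 for complex I, -0.238 to 0.0429 for complex III and -0.368 to -0.039 for complex IV. For salidroside against sham they were -0.0912 to 0.066, -0.115 to -0.029, -0.160 to 0.141 and -0.207 to 0.0664 for complexes I to IV. The lowest of these values came without sham replicate 1, except for complex II. With the replicate block, the averaged sham sample taken as replicate 2, the members' medians were -0.06, 0.10 and 0.04 and 0 were called; over all features 0 were called in each comparison, beside 135, 0 and 117 without it. The numbers are not known to pair animals.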
